A study of Mus musculus with 9 samples.

Results

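The genes described here are 39 mouse genes of the interferon response and of antigen presentation by major histocompatibility complex (MHC) class I, listed by name and not by a threshold on their levels. All 39 were among the 19329 gene symbols of the deposited tables, and all 39 passed the filter on low counts that left 12091 genes for testing. They were followed in liver RNA of 9 mice of the inbred strain C57BL/6J, each library coming from one mouse at 11 weeks of age. In 4 mice a high-sucrose diet (HSD), used in the study as a model of fatty liver, replaced the chow from 8 weeks of age for 3 weeks, and 5 mice stayed on chow. No genetic change or drug is named for either group, and their sex was not found in the sources used here. The question asked of these genes was which of them differed in level between HSD and chow livers.

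Interferons are secreted proteins that warn cells of infection. Their receptors activate JAK kinases and STAT transcription factors, and a complex that holds *Stat2* and *Irf9* then binds the interferon-stimulated response element (ISRE) in front of antiviral genes. The gamma-activated site (GAS) is the element bound after interferon gamma. MHC class I molecules carry peptides from inside the cell to its surface for inspection by T cells, and interferons raise their production in most cell types, hepatocytes included. By role, the list holds 5 transcription factors and feedback genes, 3 sensors and adaptors, 15 antiviral effectors, 8 interferon-inducible GTPases and 8 genes of MHC class I presentation.

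RefSeq promoter windows on GRCm38.p6, from 250 bases before to 50 bases after the transcription start, were found for 32 of the 39 genes. The letters GAAANNGAA, the core of an ISRE, were searched on both strands, as were the letters TTCNNNGAA, the core of a GAS. An ISRE match lay in the windows of 18 of the 32 genes (56.2%), against 9.76% of 27025 genes with a window. A GAS match lay in 10 of the 32 (31.2%), against 9.55% of all genes, and 22 of the 32 held either. By role, ISRE matches were found in 6 of 7 inducible GTPases (*Gbp7*, *Gbp3*, *Gbp2*, *Irgm1*, *Igtp* and *Irgm2*), 8 of 13 effectors and 1 of 6 MHC class I genes (*B2m*). They were also found in 2 of 2 sensors and adaptors and in 1 of 4 transcription factors and feedback genes. Matches were allowed to overlap, and a match describes the sequence only. Of these windows, the 250 bases before the start are shown for 4 genes, with matches in capitals: *Ifi47*, the gene past the test, *B2m*, the gene whose diets did not overlap, and *Isg15* and *Igtp*, whose matches lie side by side.
Ifi47 (chr11:49076337-49076586, plus strand): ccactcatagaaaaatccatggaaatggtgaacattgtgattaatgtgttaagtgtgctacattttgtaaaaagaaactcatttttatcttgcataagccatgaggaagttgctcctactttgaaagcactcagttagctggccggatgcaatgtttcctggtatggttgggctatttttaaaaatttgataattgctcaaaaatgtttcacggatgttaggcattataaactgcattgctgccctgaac
B2m (chr2:122147437-122147686, plus strand): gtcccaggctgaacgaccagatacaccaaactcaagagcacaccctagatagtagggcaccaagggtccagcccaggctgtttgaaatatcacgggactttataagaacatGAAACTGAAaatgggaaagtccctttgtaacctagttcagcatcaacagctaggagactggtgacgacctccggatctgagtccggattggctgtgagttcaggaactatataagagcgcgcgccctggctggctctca
Isg15 (chr4:156200819-156201068, minus strand): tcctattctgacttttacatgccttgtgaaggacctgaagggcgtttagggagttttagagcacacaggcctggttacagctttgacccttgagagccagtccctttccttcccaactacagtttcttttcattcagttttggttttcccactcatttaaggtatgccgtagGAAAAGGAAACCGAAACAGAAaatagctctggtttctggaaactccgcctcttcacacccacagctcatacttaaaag
Igtp (chr11:58199306-58199555, plus strand): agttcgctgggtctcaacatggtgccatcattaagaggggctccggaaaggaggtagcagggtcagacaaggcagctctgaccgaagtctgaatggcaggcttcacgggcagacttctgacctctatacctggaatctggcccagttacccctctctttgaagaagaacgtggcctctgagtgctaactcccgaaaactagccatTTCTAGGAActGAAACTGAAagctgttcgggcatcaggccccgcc

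The window of *Ifi47* held neither set of letters, and that of *B2m* held 1 ISRE match. In *Isg15* 3 overlapping ISRE matches ran from base -78 to base -58 relative to the start, and in *Igtp* 2 bases lay between a GAS match and an ISRE match, as the map of matches along the windows shows.

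**Figure D1:**
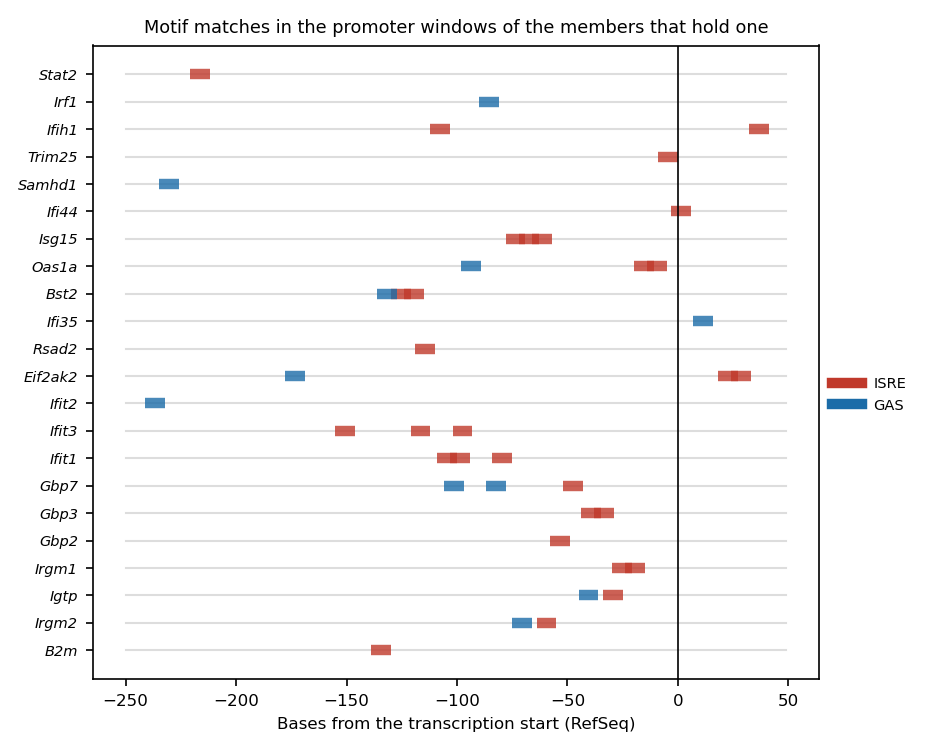
Positions of ISRE (red) and GAS (blue) letter matches on either strand in the promoter windows of the 22 genes that hold one, with the distance in bases from the RefSeq transcription start on the x axis. ISRE matches of the inducible GTPases lie between base -64 and base -16.

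Libraries held 14040723 to 24825322 estimated counts on HSD and 12769668 to 25913869 on chow. All 7 hepatocyte markers in the table were tested and present, and 1 chow liver stood apart. Relative to the mean of the 9 livers on the log2 scale, the 20 acute phase genes averaged -0.65 to -0.44 in the HSD livers, -0.58 to 0.35 in chow 2 to 5 and 3.11 in chow 1. Chow 1 was also the highest of the 9 in 20 of the 39 genes, against 19.6% of all genes tested, chow 5 was the lowest in 13 (11.7% of all genes) and HSD 1 in 11 (12.4%). Averaged over the 39 genes, the centred log2 level was -0.22 to 0.08 in HSD livers and -0.31 (chow 5) to 0.42 (chow 1) in chow livers. The diets overlapped in this average, whose difference (HSD minus chow) was -0.12 with chow 1 and -0.03 without it. The part of the acute phase liver in the results below was not tested. Values without it are given for those of the 39 genes whose call it changed and for some other genes.

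**Figure D2:**
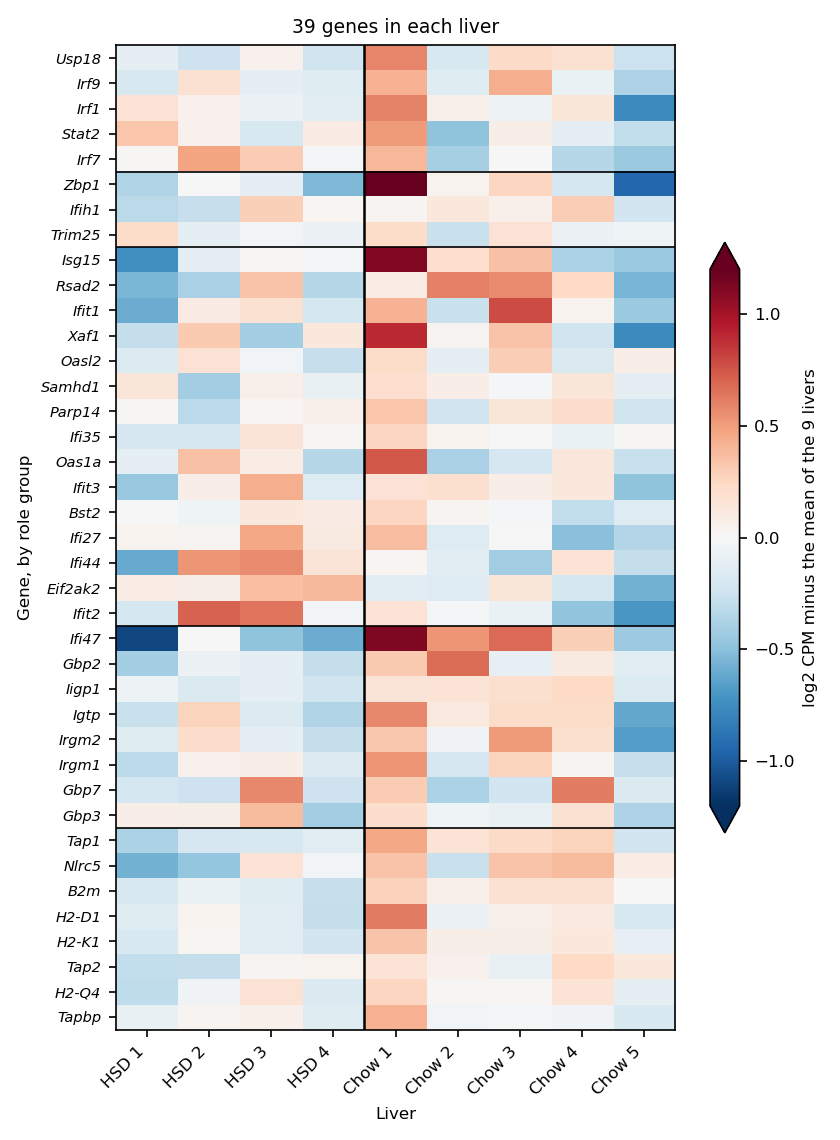
Heat map of log2 CPM minus the mean of the 9 livers for the 39 genes (rows, in blocks by role) in HSD livers 1 to 4 and chow livers 1 to 5 (columns). Chow 1 is the reddest column, being highest in 20 genes, and chow 5 is lowest in 13.

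In the comparison of diets, levels are TMM-scaled CPM, the share of a library's counts corrected for its composition, and a gene counted as higher or lower at an adjusted p under 0.05 in edgeR's quasi-likelihood test with Benjamini-Hochberg adjustment over all 12091 genes. *Ifi47* was the only one of the 39 genes lower on HSD, and 38 did not pass. Over all genes tested, 3.23% were lower and 3.44% were higher on HSD. None of the 39 was higher in edgeR, DESeq2 or limma voom, and at an unadjusted p under 0.05 edgeR had 1 higher (*Eif2ak2*) and 5 lower (*Ifi47*, *Tap1*, *B2m*, *Iigp1* and *Nlrc5*). At that unadjusted p the whole table had 12.1% of genes higher and 11.6% lower, so the 5 of 39 lower are near the share of all genes. DESeq2 called 3 lower (*Ifi47*, *B2m* and *Tap1*), where 5.83% of all genes it tested were lower.

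On the TMM scale 31 of the 39 log2 fold changes (HSD over chow) were negative, against 50.4% of all genes, and their median was -0.15 (range -1.02 to 0.52). The 39 genes were chosen with earlier results of these data known. The sign of single genes depends on the scale. With library totals 26 of 39 were negative, and on log2(TPM + 1) 16 were, where the median of all genes moved by 0.14 and 82.5% of calls were higher, against 51.5% in edgeR with TMM (69.1% with library totals). Relative to the median of all genes, 30 of the 39 lay below it under each of these 3 scalings. Without chow 1, on the TMM scale, 26 lay below that median and 26 were negative. With the series of library labels (described below) as a covariate 26 lay below it, as on log2(TPM + 1) with all genes kept. The 95% interval of the fold change stayed within 1.5-fold either way for 19 genes and within 2-fold for 34, so that for the remaining 5 a 2-fold difference was not excluded by the interval. In whole liver, fewer cells of a type and less RNA per cell cannot be told apart.

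**Figure D3:**
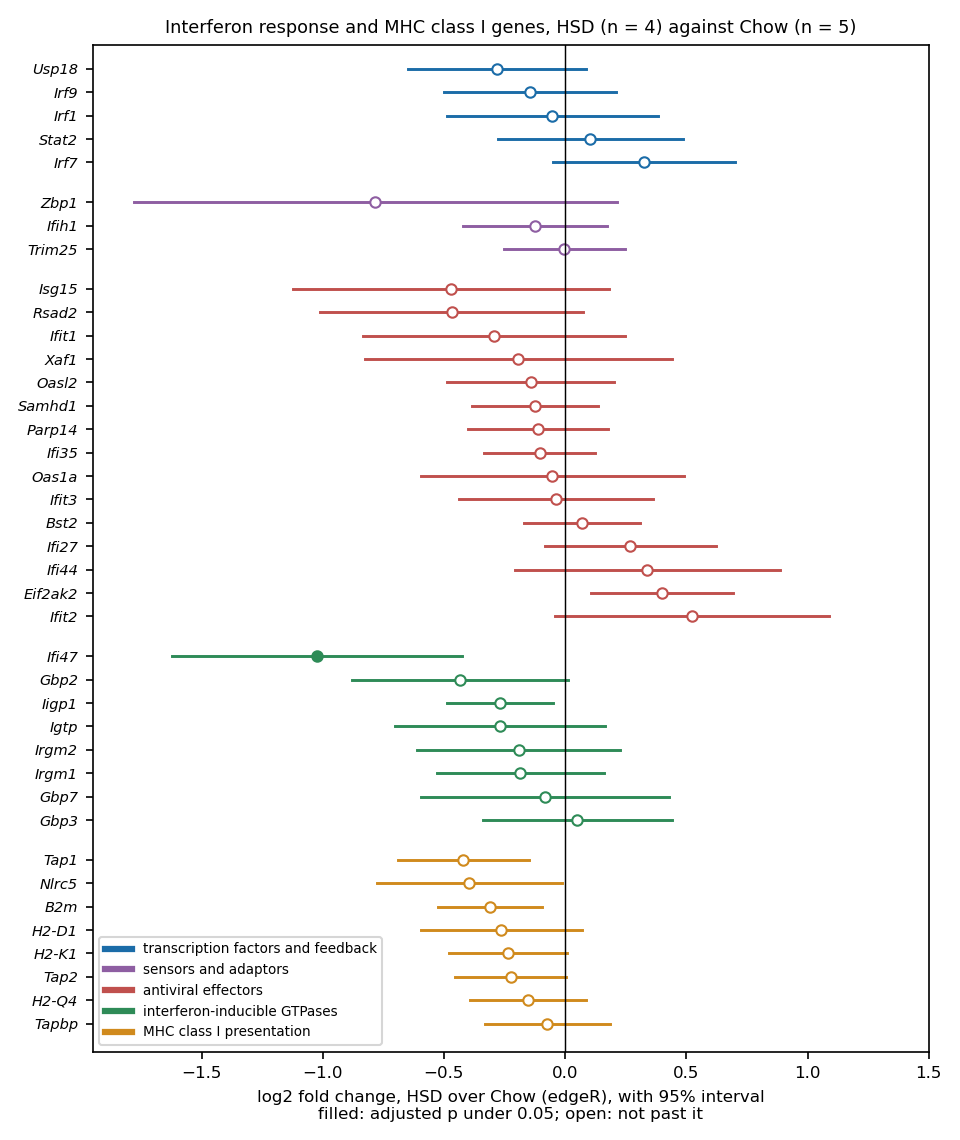
The log2 fold change of each of the 39 genes, HSD (n = 4) over chow (n = 5), from edgeR with its 95% interval, coloured by role. The single filled point is *Ifi47* at -1.02, and the 8 MHC class I genes all lie left of 0 on this scale (5 do on log2(TPM + 1)).

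Levels between genes were compared as TPM, which corrects for transcript length. The MHC class I chains led the list. *B2m* stood at 2106 ± 101 TPM on HSD and 2312 ± 184 TPM on chow (SD, n = 4 and 5), and *H2-K1* at 1096 ± 70.0 TPM on HSD and 1144 ± 98.4 TPM on chow. *H2-D1* followed at 332 ± 28.2 TPM on HSD and 351 ± 58.6 TPM on chow. The most abundant effectors were *Bst2* at 244 ± 16.2 TPM on HSD and 205 ± 13.9 TPM on chow, and *Ifi27* at 126 ± 19.5 TPM on HSD and 90.8 ± 13.7 TPM on chow. At the low end were *Rsad2*, *Gbp2*, *Ifi44* and *Ifit2*, the last with 1.35 ± 0.485 TPM on HSD and 0.863 ± 0.181 TPM on chow, from 22 to 96 counts per liver.

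Among the inducible GTPases, which attack the vacuoles of intracellular pathogens, *Ifi47* (chromosome 11, 49076587 to 49096974, plus strand, GRCm38) was lower on HSD. It had 8.30, 17.7, 12.7 and 11.7 CPM in HSD livers 1 to 4, against 38.8, 25.7, 28.6, 21.7 and 13.1 CPM in chow livers 1 to 5. Chow 5 lay within the HSD range and the other 4 chow livers lay above it. HSD over chow, this is a log2 fold change of -1.02 with a standard error of 0.28, and the adjusted p of edgeR's quasi-likelihood test was 0.0461. The call did not hold in limma voom (adjusted p = 0.0523) or in limma on log2(TPM + 1) (-0.73, 0.0885), nor without chow 1 (log2 fold change -0.84, adjusted p = 0.0582), without HSD 1 (-0.87, 0.138), or with any of chow 2, chow 3, chow 4, HSD 3 and HSD 4 left out (0.0594 to 0.126). It held in DESeq2 (0.00327), without chow 5 (-1.19, 0.0159) and without HSD 2 (-1.23, 0.0385).

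Library labels fall in a first series (HSD 1 and 2, chow 1 to 4) and a second (HSD 3 and 4, chow 5). For *Ifi47* the mean log2 CPM difference was -1.20 in the first series and -0.10 in the second, whose lone chow liver allows no test. With the series as a covariate the log2 fold change was -0.82 (adjusted p = 0.125 in edgeR's quasi-likelihood test). Chow 5 was the lowest chow liver for *Ifi47* and is the only chow liver of its series, so the liver and the series cannot be told apart.

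Of the other 7 GTPases none passed, and 6 had negative log2 fold changes on the TMM scale (on log2(TPM + 1), 4 of all 8 GTPases did). *Iigp1*, which coats and breaks parasite vacuoles, had 259, 239, 249 and 229 CPM in HSD livers 1 to 4, against 300.3, 302, 308, 319 and 241 CPM in chow livers 1 to 5. Chow 5 again lay within the HSD range, apart from the other chow livers, which were all above it. Its log2 fold change was -0.27 (standard error 0.10, adjusted p = 0.128 in edgeR's quasi-likelihood test). *Gbp2*, a guanylate-binding protein of the same defence, averaged 2.93 ± 0.322 CPM on HSD and 3.95 ± 0.979 CPM on chow, a log2 fold change of -0.43 (adjusted p = 0.222 by edgeR). *Igtp*, *Irgm2* and *Irgm1*, the last of which controls the other members of its family, ranged in log2 fold change from -0.27 to -0.19, and *Gbp7* (-0.08) and *Gbp3* (0.05) lay near 0. *Gbp7* had 1 HSD liver apart, HSD 3 at 15.2 CPM, while the other 3 had 8.57 to 8.77 CPM.

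The 8 genes of MHC class I presentation all had negative log2 fold changes on the TMM scale (median -0.25), but 7 did with library totals and 5 on log2(TPM + 1), and none passed the test in edgeR. All 8 lay below the median of all genes under each of these 3 scalings, and 7 did on the TMM scale without chow 1. At an unadjusted p under 0.05, 3 of the 8 were lower (*Tap1*, *B2m* and *Nlrc5*), where 11.6% of all genes were.

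*Tap1*, a subunit of the transporter that brings peptides into the endoplasmic reticulum, lies on chromosome 17 (34187553 to 34197225, plus strand). It had 19.1, 21.7, 21.8 and 22.8 CPM in HSD livers 1 to 4, against 34.4, 27.9, 29.3, 30.0 and 21.2 CPM in chow livers 1 to 5. Only chow 5 fell within the HSD range. *Tap1* stood at a log2 fold change of -0.42 (standard error 0.12), with an adjusted p of 0.0640 in edgeR's quasi-likelihood test. It was 0.0271 in DESeq2 and, by edgeR, 0.0159 without chow 5 (-0.51), and in the second label series alone the difference was 0.07. Without chow 1 *Tap1* did not pass (-0.35, adjusted p = 0.085 by edgeR). On log2(TPM + 1) *Tap1* stood at -0.10 (adjusted p = 0.562, limma). Its partner *Tap2* averaged 22.7 ± 2.99 CPM on HSD and 26.5 ± 2.27 CPM on chow, a log2 fold change of -0.22 (adjusted p = 0.220 by edgeR).

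*B2m* (chromosome 2, 122147686 to 122153083, plus strand) encodes the light chain shared by MHC class I molecules. It had 999.7, 1074, 1029 and 943 CPM in HSD livers 1 to 4, against 1378, 1187, 1291, 1288 and 1132 CPM in chow livers 1 to 5. Every HSD liver lay below every chow liver, which was so for no other of the 39 genes and for 5.51% of all genes, and none of the 39 had every HSD liver above every chow liver (5.84% of all genes). For *B2m* the log2 fold change was -0.31 (standard error 0.10), with an adjusted p of 0.0820 in edgeR's quasi-likelihood test and 0.00395 in DESeq2. On log2(TPM + 1) it was -0.13 (adjusted p = 0.416, limma).

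The heavy chains *H2-K1*, *H2-D1* and the nonclassical *H2-Q4* had log2 fold changes of -0.24, -0.26 and -0.15 with adjusted p of 0.223, 0.325 and 0.440 by edgeR. *H2-D1* had 420.5 to 526 CPM in the HSD livers, 448 to 556 CPM in chow 2 to 5 and 784 CPM in chow 1, and without chow 1 the log2 fold change was -0.12. *Nlrc5*, the transactivator of MHC class I genes, had 10.4, 11.1, 17.3 and 15.1 CPM in HSD livers 1 to 4, against 19.5, 12.7, 19.5, 20.0 and 16.4 CPM in chow livers 1 to 5. Its diets overlapped, with -0.40 on the log2 scale (standard error 0.18, adjusted p = 0.196 by edgeR). *Tapbp*, tapasin, which loads peptides onto the class I chain, averaged 88.2 ± 5.96 CPM on HSD and 92.8 ± 16.0 CPM on chow, with chow 1 apart at 121 CPM.

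**Figure D4:**
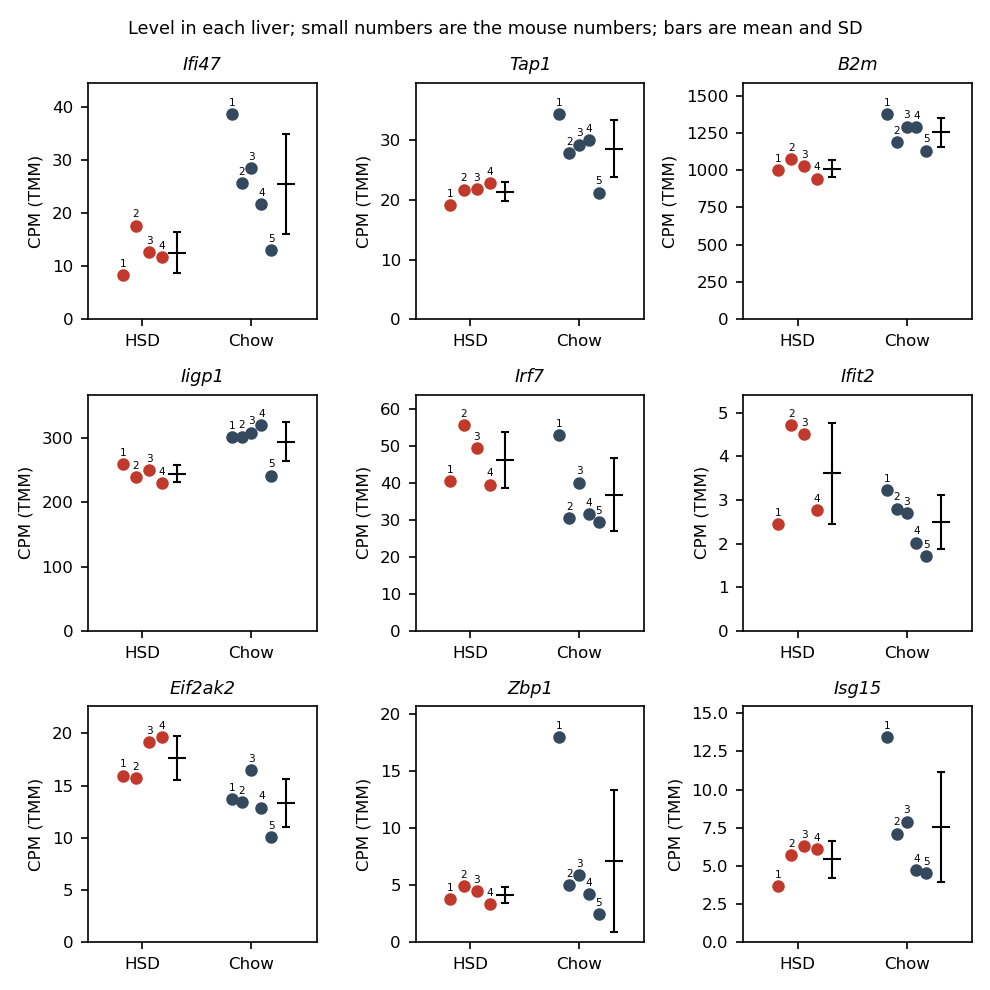
CPM in each liver for 9 of the genes, HSD on the left and chow on the right of each panel, with mouse numbers beside the points and the mean and SD at the side. In *B2m* the diets do not overlap, and in *Zbp1* and *Isg15* chow 1 lies above all other livers.

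Of the 5 transcription factors and feedback genes, none passed, and 3 had negative and 2 positive log2 fold changes on the TMM scale (1 and 4 on log2(TPM + 1)). *Irf7*, the factor that amplifies type I interferon production, had 40.6, 55.7, 49.4 and 39.6 CPM in HSD livers 1 to 4, against 53.0, 30.5, 40.1, 31.6 and 29.5 CPM in chow livers 1 to 5. Chow 1 lay among the HSD livers, and 3 of the other 4 chow livers lay below all HSD livers. For *Irf7* the difference was 0.32 on the log2 scale (standard error 0.17, adjusted p = 0.283 in edgeR's quasi-likelihood test). Without chow 1 it was 0.48 and passed as higher on HSD (adjusted p = 0.0467), as it did on log2(TPM + 1) in limma (0.55, adjusted p = 0.0479). *Stat2* and *Irf9*, which are parts of the ISRE-binding complex, stood at log2 fold changes of 0.10 and -0.15, *Irf1*, a factor induced by interferon gamma, at -0.05, and *Usp18*, which removes *Isg15* from proteins and dampens the receptor, at -0.28 (adjusted p of 0.343 to 0.903 by edgeR).

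The sensors did not pass either. *Zbp1*, a sensor of left-handed nucleic acid that can trigger necroptosis, had 3.77, 4.91, 4.50 and 3.33 CPM in HSD livers 1 to 4, against 17.98, 5.02, 5.87, 4.20 and 2.50 CPM in chow livers 1 to 5. The diets overlapped, and chow 1 was far above all other livers. With all livers it stood at -0.78 (standard error 0.46 on the log2 scale, adjusted p = 0.330 in edgeR's quasi-likelihood test), and the chow mean was 7.11 CPM with chow 1 and 4.40 CPM without it, where the log2 fold change was -0.12. *Ifih1*, the RNA sensor MDA5, and *Trim25*, a ubiquitin ligase of RNA sensing, stood at -0.12 and -0.00 on the log2 scale (adjusted p of 0.633 and 0.988 by edgeR).

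Among the 15 antiviral effectors, none passed, and 10 log2 fold changes were negative and 5 positive on the TMM scale (median -0.11), against 5 and 10 on log2(TPM + 1). *Ifit2*, a protein that binds viral RNA, had 2.45, 4.71, 4.50 and 2.78 CPM in HSD livers 1 to 4, against 3.23, 2.80, 2.69, 2.02 and 1.72 CPM in chow livers 1 to 5. HSD 2 and HSD 3 were above all chow livers, and HSD 1 and HSD 4 lay within the chow range. Between the diets this is 0.52 on the log2 scale (standard error 0.26, adjusted p = 0.248 in edgeR's quasi-likelihood test). *Eif2ak2*, the kinase PKR that stops translation on double-stranded RNA, had 15.9, 15.7, 19.2 and 19.7 CPM in HSD livers 1 to 4, against 13.7, 13.4, 16.5, 12.9 and 10.1 CPM in chow livers 1 to 5. Only chow 3 reached the HSD range, at 0.40 on the log2 scale (standard error 0.14, adjusted p = 0.10 by edgeR).

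*Isg15*, the ubiquitin-like protein that gives the response one of its best known markers, had 3.68, 5.70, 6.28 and 6.11 CPM in HSD livers 1 to 4, against 13.5, 7.12, 7.89, 4.72 and 4.52 CPM in chow livers 1 to 5. The diets overlapped, with chow 1 highest and HSD 1 lowest, at -0.47 on the log2 scale (standard error 0.30, adjusted p = 0.378 by edgeR) and at -0.17 without chow 1. *Rsad2*, viperin, which blocks viral replication, stood at -0.47 and *Ifit1*, an RNA-binding relative of *Ifit2*, at -0.29 (adjusted p of 0.281 and 0.513 by edgeR). *Ifi44* and *Ifi27* had positive values, 0.34 and 0.27 (adjusted p of 0.450 and 0.346 by edgeR). The other 8 effectors, *Xaf1*, *Oasl2*, *Samhd1*, *Parp14*, *Ifi35*, *Oas1a*, *Ifit3* and *Bst2*, lay between -0.19 and 0.07, each with an adjusted p of 0.576 or more by edgeR. They include *Xaf1*, which promotes cell death, the oligoadenylate synthetase *Oas1a*, the nucleotide hydrolase *Samhd1*, the ADP-ribosyltransferase *Parp14* and tetherin, *Bst2*, which holds budding viruses at the membrane. Single livers stood apart in *Ifit3* (chow 5 at 8.58 CPM, other chow livers at 12.8 to 13.8 CPM) and in *Parp14* (HSD 2 at 31.4 CPM, other HSD livers at 39.7 to 40.9 CPM).

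Kallisto divides reads that fit several transcripts, so each gene was searched for stretches of 31 bases that also occur elsewhere. They made up 68.8% of the stretches of *Oas1a*, 61.8% for *Ifit3*, 38.4% for *H2-Q4*, 26.7% for *H2-D1* and 22.8% for *H2-K1*. Values of these genes are therefore uncertain, and those of *Ifi47* (3.32%), *Tap1* (0.825%) and *B2m* (0%) are less exposed.

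Beyond the 39 genes, 134 tested genes of 7 related lists, taken from general knowledge of the pathways, were read from the same fit. Of these, 3 were higher, 9 lower and 122 not past edgeR's test, where 3.44% of all genes were higher and 3.23% lower. The interferon genes themselves could not be read, since none of 12 listed was tested and those in the table had at most 2 counts in a liver. In the list of receptors and JAK-STAT factors 1 of 18 was higher and 3 lower. *Irf5*, a factor of macrophage activation, was lower at -0.93 on the log2 scale (adjusted p = 0.00149 by edgeR), with 8.72 to 11.5 CPM on HSD and 16.7 to 20.8 CPM on chow. *Irf3*, which starts the first wave of interferon after viral sensing, stood at -0.38 (adjusted p = 0.00818), *Irf2* at -0.41 (adjusted p = 0.0234) and the kinase *Jak2* at 0.36 (adjusted p = 0.0365, all by edgeR). Each of these 4 had diets that did not overlap, as did 5.51% of all genes with HSD below chow and 5.84% with HSD above it. *Jak2* was not called without chow 1 (0.33, adjusted p = 0.054 by edgeR). Of 23 alternative settings, *Jak2* was called in 6, *Irf2* in 13, *Irf3* in 18 and *Irf5* in 21. The 12 called genes of the related lists all kept their sign in the 23 settings. These settings reuse the livers that picked the genes, so a kept sign is no separate test of direction. The setting with an adjusted p under 0.01 changes only the threshold, and the second label series alone is not among the 23.

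In the list of other inducible GTPases, 3 of 11 were lower (*Gbp6*, *Tgtp1* and *Gvin1*) and 1 was higher (*Irgq*, listed as a family member). Over all genes, 3.23% were lower and 3.44% higher. *Gbp6* had 6.51, 6.58, 6.28 and 6.70 CPM in HSD livers 1 to 4, against 12.6, 12.4, 11.6, 14.5 and 9.20 CPM in chow livers 1 to 5. Its diets did not overlap, chow 5 being the lowest chow liver, and the log2 fold change was -0.89 (adjusted p = 0.00350 by edgeR). *Tgtp1* (-1.70, adjusted p = 0.0362) and *Gvin1* (-1.57, adjusted p = 0.0223, both by edgeR) were lower, with chow 5 inside the HSD range, at 2.03 CPM for *Tgtp1* (HSD livers 1.63 to 4.27 CPM) and 25.0 CPM for *Gvin1* (HSD livers 11.9 to 32.1 CPM). *Gbp6*, *Tgtp1* and *Gvin1* share 74.2%, 84.4% and 99.7% of their stretches of 31 bases with other genes, and *Irgq*, a GTPase family member that was higher (0.41, adjusted p = 0.0138 by edgeR), shares 1.12%. *Tgtp1* was called in 10, *Gvin1* in 15, *Irgq* in 17 and *Gbp6* in 19 of the 23 settings. With the label series as a covariate *Tgtp1* (adjusted p = 0.0821) and *Gvin1* (0.0804, both by edgeR) were not called, and *Gbp6*, *Tgtp1* and *Gvin1* were not called in the limma fits on TPM.

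Of 56 other interferon-stimulated genes, 2 were lower and none was higher by edgeR, where 3.23% of all genes were lower and 3.44% higher. At an unadjusted p under 0.05 12 were lower and 0 higher, where 11.6% of all genes were lower and 12.1% higher. *Apol9b* and *Apol9a*, mouse apolipoprotein L genes, had log2 fold changes of -1.04 (adjusted p = 0.00707) and -0.98 (adjusted p = 0.0240, both by edgeR) and share much of their sequence. *Apol9b* had 53.9, 78.7, 59.4 and 67.1 CPM in HSD livers 1 to 4, against 177, 137, 145, 121 and 87.0 CPM in chow livers 1 to 5, with no overlap. In MHC class I and peptide loading beyond the 8 genes above, *Mr1*, which presents vitamin B metabolites to mucosal-associated T cells, was higher (log2 fold change 1.22, adjusted p = 0.00845) and *H2-T22*, a nonclassical class I gene, was lower (-0.48, adjusted p = 0.0373, both by edgeR). *Mr1* had 13.2, 10.2, 19.9 and 16.3 CPM in HSD livers 1 to 4, against 4.79, 6.77, 4.52, 8.70 and 7.02 CPM in chow livers 1 to 5, with no overlap. *H2-T22* was called in 10 of the 23 settings, and neither with library totals (adjusted p = 0.0549) nor with the label series as a covariate (0.0902, both by edgeR), and 51% of its stretches of 31 bases occur in other genes. *Apol9a* was called in 15 settings and *Apol9b* and *Mr1* in 22. None of 15 nucleic acid sensing genes passed (2 at an unadjusted p under 0.05, 1 in each direction).

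**Figure D5:**
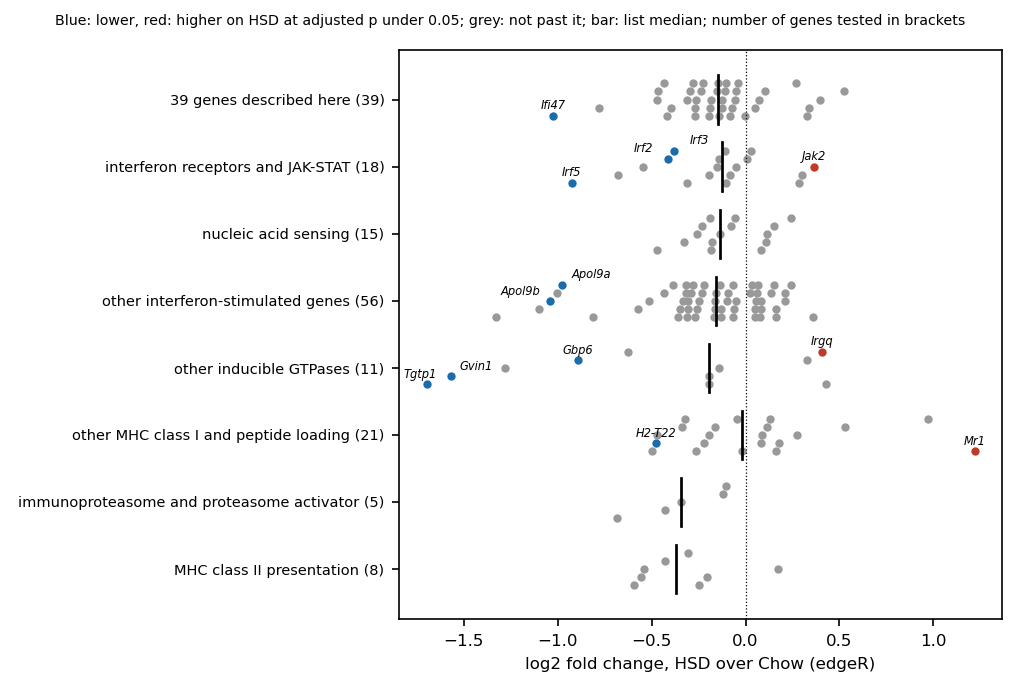
Log2 fold changes, HSD over chow, of the 39 genes and of the related lists, 1 point per gene tested, with the list median as a bar. Coloured points passed edgeR's test at an adjusted p under 0.05, 1 of the 39 and 12 of the 134 others.

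Marker lists of other cell types had the following values beside these results. At an unadjusted p under 0.05 in edgeR, 11.6% of all genes were lower and 12.1% higher. The 12 Kupffer cell and macrophage markers had a median log2 fold change of -0.54, 6 at an unadjusted p under 0.05, all lower, and none past edgeR's adjusted test. Their summed level was 221 to 378 CPM in HSD livers and 272 to 647 CPM in chow livers, with chow 1 highest at 647 CPM and 272 to 449 CPM in the other chow livers. Of the T cell, NK cell and plasmacytoid dendritic cell markers, 3 of 12, 1 of 10 and 0 of 5 passed the filter on low counts, and the others in the table had at most 18, 30 and 12 counts in a liver (2 T cell markers were not in the table), 1 NK cell marker being at 0 in all 9. The 6 cholangiocyte markers had a median log2 fold change of 0.56, all positive and 2 at an unadjusted p under 0.05, and summed to 44.5 to 68.5 CPM in HSD livers and 30.0 to 73.6 CPM in chow livers, of which chow 1 was the highest. The 8 stellate cell and fibroblast markers had a median of 0.32, with 7 positive and 4 at an unadjusted p under 0.05, all higher, and summed to 229 to 305 CPM in HSD livers and 188 to 235 CPM in chow livers. None of these 14 passed edgeR's adjusted test. Median log2 fold changes were -0.18 for the 7 hepatocyte markers (5 negative) and -0.04 for the 9 sinusoidal endothelial cell markers (6 negative). They were 0.34 for 4 tested B cell markers, 0.14 for 3 of conventional dendritic cells and -0.31 for 2 of neutrophils. The 3 tested T cell markers had a median of -0.61, all negative and 1 at an unadjusted p under 0.05 in edgeR. These 3 summed to only 1.98 to 2.73 CPM in HSD livers and 1.81 to 5.37 CPM in chow livers. The 1 tested NK cell marker stood at 0.45. The part of these cell types in the values of *Ifi47*, *B2m* and the lists was not tested.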

How the data were processed

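Liver RNA of 9 mice (4 HSD, 5 chow) was sequenced by the authors after poly-A selection, and each sample's label gives its diet. The authors deposited estimated counts per gene symbol from kallisto on GRCm38, which are not scaled, and TPM values, scaled by them per library. Neither the kallisto version nor the annotation release was found in those sources. No column of another sample was present (0 columns).

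For the diet comparison edgeR 4.0.16 (R 4.3.3) was used on rounded counts, with TMM scaling, its filterByExpr filter (minimum count 10 and minimum total 15), the quasi-likelihood test and diet as the only factor (7 residual degrees of freedom, biological coefficient of variation 0.187). Log2 CPM used a prior count of 2. Standard errors are the log2 fold change over the root of F, and intervals are at 95%. The mice are separate animals, so p-values set the diet difference against the spread between mice. The main fit does not account for the label series, over which the diets are unevenly divided. The fit was tested on simulated data. Libraries held 12769668 to 25913869 counts, and the 39 genes had from 22 counts in a liver (*Ifit2*) upwards.

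All 39 genes are named. Values in every liver are given for genes past the test and for the largest change in each role group, and of the other lists up to 4 called genes each. *B2m*, *Iigp1*, *Eif2ak2*, *Nlrc5*, *Isg15* and the genes with a liver range were added after their values were seen. The 39 genes and the lists were chosen with earlier results of these data known. Gene positions and shared 31-base sequences come from GENCODE M21 (GRCm38), promoter windows from RefSeq (GRCm38.p6).

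Alternatives were DESeq2 1.42.0, limma voom (limma 3.58.1), other size factors, library totals, no filter, limma on log2(TPM + 1) and log2(TPM + 0.1) with a mean TPM of at least 1 or on all genes, counts halved (of the values above 0, 34.1% were whole within 1e-06, and 99.1% of those were even), a replicate block, the label series as a covariate, the first label series by itself, an adjusted p under 0.01, and each liver left out. Leaving out chow 1 and chow 5 together was chosen after seeing the data. One gene of the related lists is not reported here.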

Additional observations from a re-analysis of the deposited data

Results flagged for a closer look

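In 5 of 90 groups of livers (the 39 genes, their average and the averages of the 5 role groups, in each diet), 1 liver stood further from its nearest neighbour, relative to the range of its diet, than Dixon's 95% critical value. That is 5.56%, and chance gives about 5%. Values are log2 CPM minus the mean of the other livers of the same diet. *Gbp7* was 0.81 higher in HSD 3 and *Parp14* lay at -0.35 in HSD 2. *Tapbp* was 0.49 higher in chow 1, the liver with the acute phase genes. *Ifit3* lay at -0.63 and *Iigp1* at -0.35 in chow 5.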

How the results depend on the processing

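The count of 1 gene lower on HSD among the 39 was 3 in DESeq2, 2 with the replicate block, 3 with chow 1 and chow 5 both left out (an alternative chosen after seeing the data), 0 in limma voom, in the 3 limma fits on TPM, with the label series as a covariate, in the first label series alone and at an adjusted p under 0.01, and 0 to 2 with a liver left out. The count of 0 higher was 1 (*Irf7*) in both limma fits that required a minimum TPM and 0 to 1 with a liver left out. Among all genes, 807 were called, and 1337 in DESeq2, 294 in limma on log2(TPM + 1) for all genes, 425 with the replicate block, 34 in the first label series alone, 209 at an adjusted p under 0.01 and 302 (without HSD 1) to 968 (without chow 1) with a liver left out. Of the related lists 12 genes were called, and 22 in DESeq2, 6, 6 and 2 in the limma fits on TPM, 7 with the covariate, 1 in the first label series alone, 5 at an adjusted p under 0.01 and 5 to 13 with a liver left out. The median over the 39 genes, -0.15, was -0.21 to -0.10 with a liver left out and 0.01 in the limma fits on TPM. The study names no pairing of mice across the diets, and the shared replicate numbers gave no sign of one. Deviations of same-numbered livers correlated at 0.05, 0.07, -0.06 and 0.04, and 1 of 4 was closest to its own number. So few livers cannot exclude a pairing. Under the block *Ifi47* stood at -1.19 and *Tap1* passed as well. For the other 38 genes, 98 of 874 alternative values changed sign, in 26 genes, none of them called. The second label series has 1 chow liver, so it gave values only. The causes of these shifts were not tested.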

Other observations

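None of the 5 immunoproteasome and proteasome activator genes passed edgeR's adjusted test. Their median log2 fold change was -0.34, with 3 lower at an unadjusted p under 0.05, where 11.6% of all genes were lower. *Psme2*, a subunit of the activator that opens the proteasome, averaged -0.34 (adjusted p = 0.0533 by edgeR), with 44.1, 46.9, 43.0 and 44.0 CPM in HSD livers 1 to 4, against 64.3, 59.6, 57.8, 53.9 and 46.5 CPM in chow livers 1 to 5. *Psmb9* and *Psmb10*, catalytic subunits of the immunoproteasome, stood at -0.69 and -0.43 (adjusted p of 0.0687 and 0.119 by edgeR). *Psmb8* and *Psme1* stood at -0.10 and -0.12 (adjusted p of 0.671 and 0.499 by edgeR). The diets did not overlap in *Psmb10*, as in 5.51% of all genes with HSD below chow, and chow 1 was its highest liver at 37.0 CPM. Averaged over the 5 genes, the log2 difference was -0.33 with chow 1 and -0.24 without it.

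Of 8 tested genes of MHC class II presentation, 7 had negative log2 fold changes (median -0.37) and none passed edgeR's test. *Cd74*, the invariant chain, had 58.7, 59.3, 50.8 and 32.5 CPM in HSD livers 1 to 4, against 65.7, 90.4, 65.5, 99.7 and 44.1 CPM in chow livers 1 to 5. The diets overlapped through chow 5. HSD 4, the lowest liver in *Cd74*, was also the lowest in macrophage markers, at -0.96 from the mean of the 9 livers. Chow 1 was the highest in macrophage markers at 0.94, while its average over the class II genes was 0.02. Chow 4, the highest in the class II genes at 0.63, stood at 0.07 in macrophage markers. The part of macrophages in these values was not tested.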
